A study of Mus musculus with 20 samples.

Results

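The fibrillar collagen genes Col1a1, Col1a2, Col3a1, Col5a1, Col5a2 and Col5a3 were followed in the ventricles of ovariectomized mice. The 6 genes were chosen by name, with earlier results of these data known. The shares of all genes set beside their counts are therefore given for scale only. All 14 probe sets whose platform annotation holds exactly 1 of these symbols were used, of 34945 single-symbol probe sets on the array. Each gene was represented by its probe set of highest mean, and all 6 lay above the level filter, among 12082 of 18193 genes that did. The samples were heart ventricles of female C57BL/6 mice, ovariectomized at 8 weeks of age and given a filled minipump for 4 weeks, with 1 array for each of 5 samples in each group. The groups were 16α-LE2 (an agonist of estrogen receptor α), 17β-estradiol (the natural agonist), a group titled beta whose other labels call it control solution, and placebo. All 4 groups were without ovaries, so no intact animal was compared. The beta-titled group was kept apart from placebo because its labels disagree. Doses are not given in the labels, and nothing in them ties each sample to an animal of its own, so p-values measure the spread between these samples, which may be technical.

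Fibrillar collagens are the rope-like proteins that give the heart wall its tensile strength. Fibroblasts secrete them as trimers of helical chains, proteases cut off the end pieces, and the trimers then pack into fibrils that are crosslinked by lysyl oxidases. Col1a1 and Col1a2 encode the chains of type I collagen, the main load-bearing fibril of the heart. Col3a1 encodes the chain of type III, a more pliable collagen that is laid down in the same fibrils. Col5a1, Col5a2 and Col5a3 encode chains of type V, a minor collagen that starts fibrils and limits their width.

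The 6 genes were read from probe sets of very unequal signal, on the log2 scale of the deposited levels, which run from 5.07 to 15.31. The representative probe set of Col3a1 averaged 10.12 over the 20 arrays, and that of Col1a2 averaged 9.60, higher than 94.5% and 92.1% of all probe sets. The representative probe set of Col1a1 averaged 7.26, close to the filter level of 6.93. Because probe sets differ in how strongly they bind their target, such levels do not rank the genes against each other. Cardiomyocyte markers stood at a mean level of 13.64 to 13.84 over 9 genes in 16α-LE2 arrays and of 13.53 to 13.91 in placebo arrays. Estradiol replicate 33 stood apart from the other arrays, with Spearman correlations of 0.922 to 0.941 to them, where the medians of the other arrays were 0.984 to 0.989. Changes against or with estradiol, and correlations over all arrays, are given with and without it, while group means and ranges include it. In bulk tissue, fewer fibroblasts and less collagen RNA per fibroblast cannot be told apart.

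RefSeq sequences in the GRCm38.p6 build were matched for 4 of the 6 genes (Col3a1, Col1a2, Col5a1 and Col5a3), and Col1a1 and Col5a2 are named only. The 250 bases before the start are shown for Col3a1 (chr1:45311288-45311537, plus strand) and Col1a2 (chr6:4505368-4505617, plus strand), because their chains go into the same fibrils, with motif matches in capitals.
Col3a1: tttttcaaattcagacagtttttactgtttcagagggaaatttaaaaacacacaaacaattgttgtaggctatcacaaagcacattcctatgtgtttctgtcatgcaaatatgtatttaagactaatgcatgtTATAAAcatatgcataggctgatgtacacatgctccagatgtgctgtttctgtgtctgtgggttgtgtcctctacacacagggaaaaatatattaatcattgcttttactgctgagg
Col1a2: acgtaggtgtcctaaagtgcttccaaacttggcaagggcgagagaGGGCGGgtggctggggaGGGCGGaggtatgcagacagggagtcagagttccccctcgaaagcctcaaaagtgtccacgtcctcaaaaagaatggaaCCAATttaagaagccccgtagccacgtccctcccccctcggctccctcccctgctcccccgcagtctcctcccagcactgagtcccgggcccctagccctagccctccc
In Col3a1 the capitals mark a TATAAA match that begins 117 bases before the start, and 12.4% of the 32851 promoters in the table hold such a match on either strand. In Col1a2 they mark GGGCGG matches that begin 205 and 188 bases before the start and a CCAAT match that begins 109 bases before it, letters that 32.7% and 33.8% of all promoters hold. The Col3a1 stretch is poor in G and C, at 35.2%, against 62% in Col1a2, 76.4% in Col5a1, 62.8% in Col5a3 and a median of 52.4% over all promoters. The last 2 lie partly inside the bounds of their genes in the reference gene table. The Col5a1 stretch (chr2:27886175-27886424, plus strand) passes the gene start of 27886381, and the Col5a3 stretch (chr9:20815068-20815317, minus strand) passes the gene end of 20815117. None of the 4 stretches holds the full palindrome bound by estrogen receptors (GGTCA and TGACC with any 3 bases between them), which 0.0639% of all promoters hold, or TGANTCA, an AP-1 site, which 6.75% hold. Both strands were searched for each motif, and no match says only that these letters are not in this window.

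Stimulation of receptor α was compared with placebo first. Col3a1 and Col5a2 were lower in every 16α-LE2 array than in any placebo array, while the genes of type I and the other type V chains did not pass the test. Of the 6 genes, 5 had a negative change, as did 59.7% of all genes, and 2 passed at a limma adjusted p under 0.05, both lower, against 0.223% of all 12082 genes tested that passed and 0.199% that passed as lower. The groups did not overlap for 2 of the 6 genes, both lower, against 2.7% of all genes. The median change of the 6 genes was −0.36 on the log2 scale, beside −0.03 for all genes.

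Col3a1, the type III gene, had levels of 9.55, 9.12, 8.86, 8.75 and 9.09 in 16α-LE2 replicates 29, 30, 32, 33 and 34, against 11.09, 10.65, 11.05, 10.05 and 9.93 in placebo replicates 31, 32, 33, 34 and 36. The placebo arrays parted, with replicates 31, 32 and 33 well above replicates 34 and 36, and even the lowest of them lay above the highest 16α-LE2 array. Col3a1 averaged 9.07 ± 0.31 with 16α-LE2 and 10.56 ± 0.55 with placebo (SD, n = 5 each), a log2 change of −1.48 ± 0.20 (SE, 95% interval −1.90 to −1.06, limma adjusted p = 0.0011). It ranked as number 2 by p among all genes.

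Col5a2, a type V chain gene, had levels of 8.29, 8.06, 7.98, 8.02 and 8.23 in the 16α-LE2 replicates, in the same order, against 8.98, 8.85, 9.01, 8.56 and 8.43 in placebo. Placebo replicates 34 and 36 were again the lowest of their group, and the groups did not overlap. The gene averaged 8.11 ± 0.14 with 16α-LE2 and 8.77 ± 0.26 with placebo (SD, n = 5 each), a log2 change of −0.65 ± 0.12 (SE, with adjusted p = 0.0147 in limma). The call was lost without 16α-LE2 replicate 30 or 33 or placebo replicate 31 or 33 (limma adjusted p = 0.0505, 0.065, 0.076 and 0.0525), after quantile normalization (0.0554), and when all probe sets of a gene were averaged (0.0917).

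Col1a2, which encodes a chain of type I, had levels of 9.56, 9.19, 9.07, 8.84 and 8.997 in 16α-LE2 arrays, against 9.92, 9.88, 9.89, 9.40 and 9.56 in placebo arrays. The highest 16α-LE2 array, replicate 29, reached into the placebo range, and the other 16α-LE2 arrays lay below it. The log2 change was −0.60 ± 0.16 (SE), with a 95% interval of −0.92 to −0.28, which missed the threshold (adjusted p = 0.134 in limma). With placebo and beta-titled arrays pooled as the control it was −0.63 and passed (limma adjusted p = 0.0245), and with array weights it was −0.70 and passed (0.00353), the only 2 of 31 alternatives in which it did.

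Col1a1, the other type I gene, ranged from 6.96 to 7.29 with 16α-LE2 and from 7.13 to 7.54 with placebo, a log2 change of −0.11 ± 0.09 (SE, with adjusted p = 0.754 in limma). Col5a1, the main type V chain gene, ranged from 7.34 to 7.72 with 16α-LE2 and from 7.43 to 7.78 with placebo, a log2 change of −0.12 ± 0.10 (SE, with adjusted p = 0.799 in limma). Col5a3, a type V chain found in fewer tissues, ranged from 7.41 to 8.23 with 16α-LE2 and from 7.40 to 7.76 with placebo, a log2 change of 0.04 ± 0.13 (SE, with adjusted p = 0.97 in limma). The groups overlapped for all 3 genes. The 95% intervals reached from −0.29 to 0.06 for Col1a1, from −0.33 to 0.09 for Col5a1 and from −0.23 to 0.31 for Col5a3. Without 16α-LE2 replicate 29, which held the highest value, the Col5a3 change was −0.11.

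**Figure D1:**
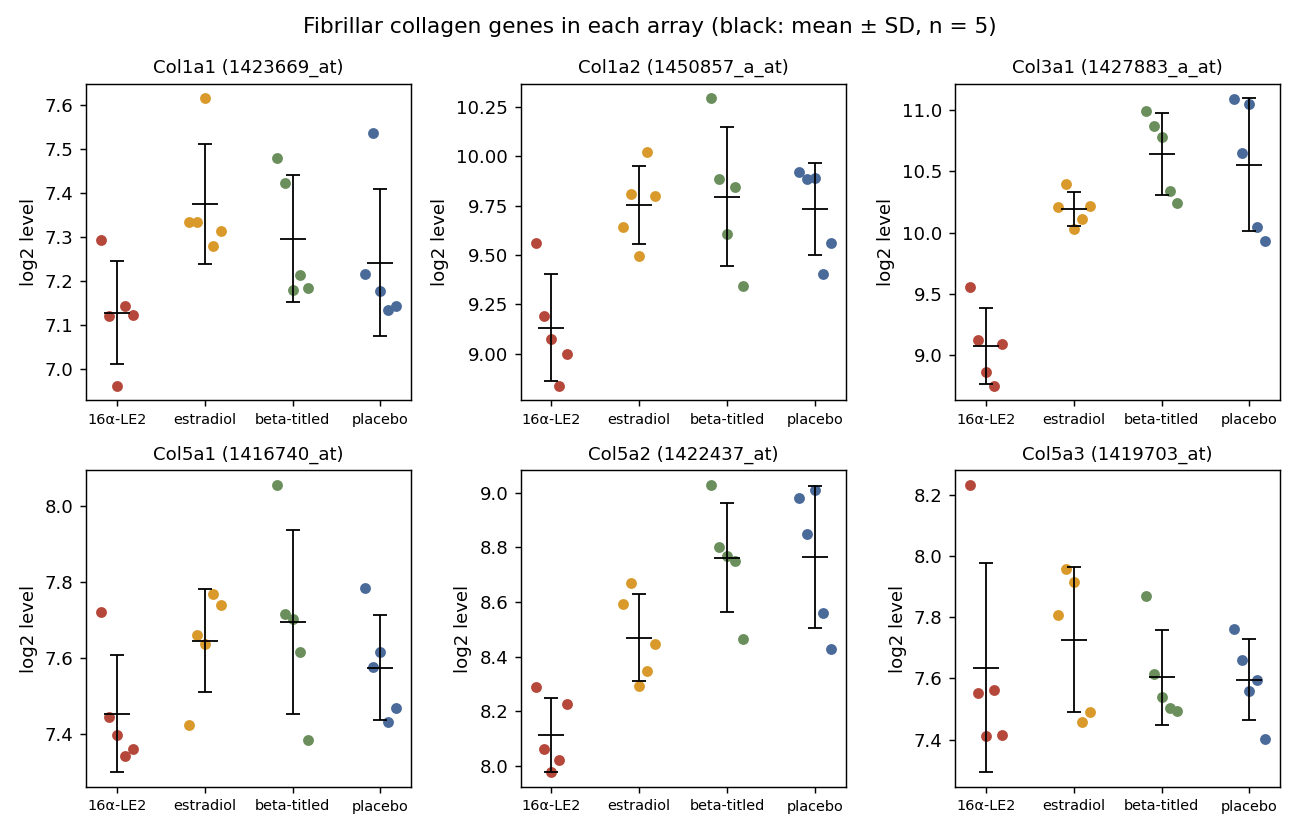
Log2 level (vertical axis, a scale of its own for each gene) of the representative probe set of each gene in 16α-LE2, estradiol, beta-titled and placebo arrays; points are arrays and black bars the mean ± SD of 5 arrays. For Col3a1 and Col5a2 all 16α-LE2 points lie below all points of each other group, and for Col1a1, Col1a2, Col5a1 and Col5a3 the groups overlap.

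The remaining probe sets of each gene were then set beside the representative ones, each fitted as a row of its own among 34945 probe sets. With 16α-LE2 against placebo, 11 of the 14 probe sets had a negative change, 6 had an unadjusted limma p under 0.05 against 7.84% of all probe sets, and 2 passed after adjustment, against 0.0887% of all. The groups did not overlap for 3 probe sets, all lower with 16α-LE2, against 1.61% of all. Those 2 were the representative probe sets of Col3a1 and Col5a2. The second Col3a1 probe set, 1427884_at, had 8.64 to 9.08 in 16α-LE2 arrays and 9.14 to 10.22 in placebo arrays, again with no overlap, and a log2 change of −0.85 ± 0.19 (SE, with adjusted p = 0.0981 in limma). Another Col1a2 probe set, 1423110_at, had a log2 change of −0.73 ± 0.15 (SE, with adjusted p = 0.0525 in limma), and it averaged 7.47 ± 0.24 with 16α-LE2 and 8.20 ± 0.32 with placebo (SD, n = 5 each). The last Col1a2 probe set, 1446326_at, lay near the bottom of the range in all groups, from 5.98 to 6.21, with a log2 change of 0.04. Col5a2 probe set 1450625_at changed by −0.27, and the other probe sets of Col1a1, Col5a1 and Col5a3 by −0.21 to 0.05, none of which passed.

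**Figure D2:**
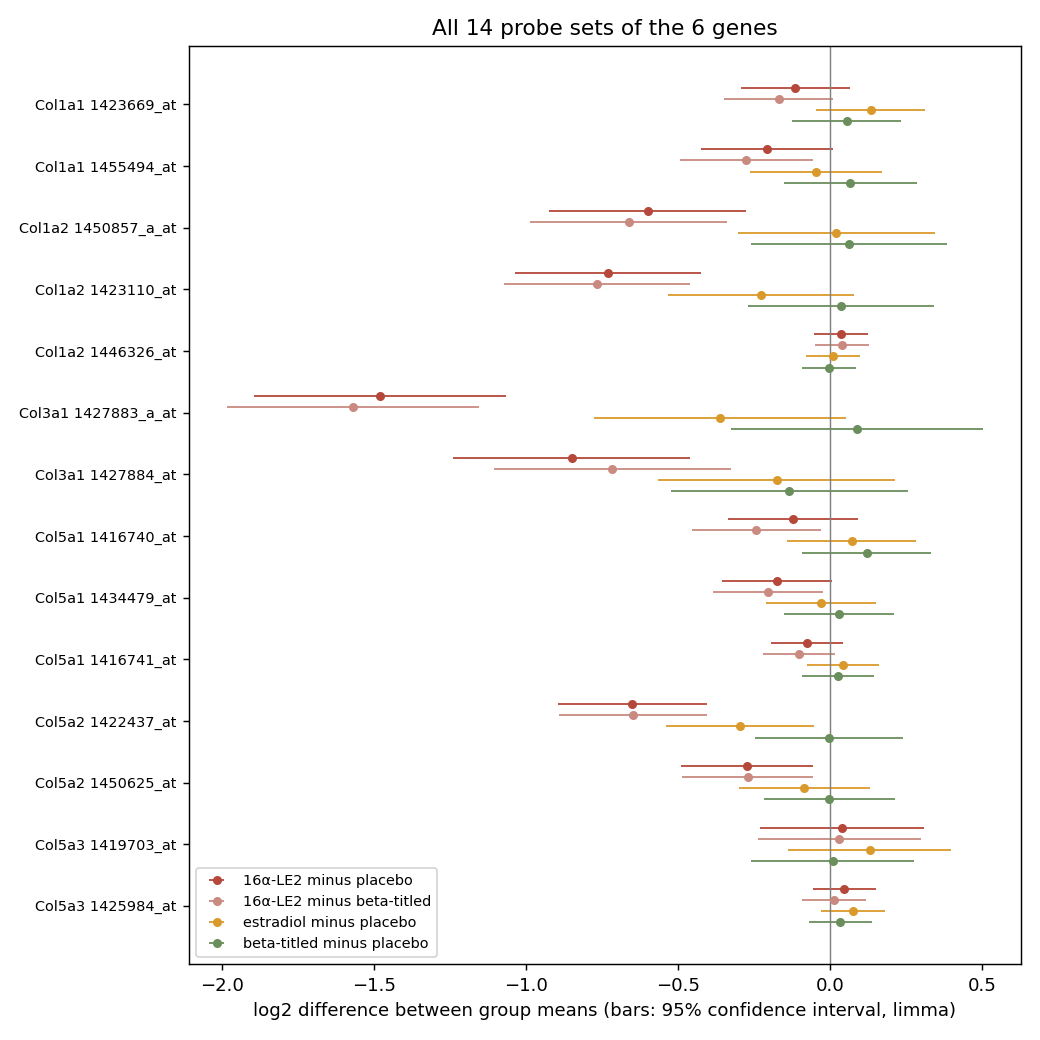
Log2 difference between group means (horizontal axis) with its 95% confidence interval for each of the 14 probe sets, ordered by gene and level, in 4 comparisons (16α-LE2 minus placebo, 16α-LE2 minus beta-titled, estradiol minus placebo and beta-titled minus placebo). In the comparisons of 16α-LE2 with placebo and with the beta-titled group, the intervals of both Col3a1 probe sets, both Col5a2 probe sets and the 2 brighter Col1a2 probe sets lie below 0, and the beta-titled minus placebo intervals all include 0.

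Whether the genes changed unequally was asked from the difference between pairs of genes within each array, compared between 16α-LE2 and placebo over 15 pairs. Col3a1 fell further than each of the 5 other genes, by 0.83 log2 units more than Col5a2 and 0.88 more than Col1a2 (exact permutation test, two-sided, p = 0.00794, the smallest that 5 against 5 arrays allow; adjusted p = 0.0108 over the pairs). Col1a2 had a change lower than that of Col1a1, its partner in type I, by 0.49 log2 units (exact permutation adjusted p = 0.0108). In all, 11 of the 15 pairs passed. The 4 that did not were Col1a2 with Col5a2, whose changes differed by 0.05 (exact permutation adjusted p = 0.706), and the pairs among Col1a1, Col5a1 and Col5a3. Probe sets of 1 gene also differed in this way: in a check chosen after the values were seen, 4 of 10 such pairs passed. Among them were the 2 probe sets of Col3a1, by 0.63 log2 units, and the 2 of Col5a2, by 0.38 (exact permutation adjusted p = 0.0397 for each). The remaining pairs that passed set a brighter Col1a2 probe set against 1446326_at, which lay at 5.98 to 6.21, below the filter level of 6.93. Col5a2 probe set 1450625_at averaged 6.79 with 16α-LE2, also below that level. Signal so low leaves little room for a fall. Unequal change between genes measured by different probe sets is therefore not separated here from unequal response of the probe sets.

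Estradiol was compared with placebo next, to ask what the natural agonist did. Of the 6 genes, 2 had a negative change, beside 57.1% of all genes, and none passed with limma, where 0% of all genes did. At an unadjusted limma p under 0.05 there was 1 gene of the 6, Col5a2, against 9.63% of all genes. Col3a1 had levels of 10.21, 10.40, 10.03, 10.11 and 10.22 in estradiol replicates 29, 30, 33, 34 and 35, all within the placebo range of 9.93 to 11.09. Its log2 change was −0.36 ± 0.20 (SE, with adjusted p = 0.499 in limma), and −0.32 without estradiol replicate 33. Col5a2 ranged from 8.29 to 8.67 with estradiol and from 8.43 to 9.01 with placebo, a log2 change of −0.30 ± 0.12 (SE, with adjusted p = 0.499 in limma), and −0.25 without replicate 33. Col1a2, Col1a1, Col5a1 and Col5a3 had changes of 0.02, 0.13, 0.07 and 0.13, and of 0.09, 0.07, 0.07 and 0.08 without replicate 33.

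The 2 agonists were then compared with each other at the same duration, their doses being unknown. All 6 genes had a negative change with 16α-LE2 relative to estradiol, as did 56.3% of all genes, by a median of −0.30 beside −0.02 for all genes, and none passed, against 0.0166% of all genes. For Col3a1 the 16α-LE2 range of 8.75 to 9.55 lay below the estradiol range of 10.03 to 10.40, and for Col5a2 that of 7.98 to 8.29 lay just below the estradiol range. This was so for 2 of the 6 genes, against 0.588% of all genes. The Col3a1 difference was −1.12 ± 0.20 (SE, 95% interval −1.54 to −0.70) with a limma adjusted p of 0.0502. The gene passed in 14 of 30 alternative settings, whose adjusted p ranged from 0.00623 to 0.22. That count includes the main fit judged at an adjusted p under 0.1 in place of 0.05. With 1 of the 20 arrays left out at a time, Col3a1 passed in 8 cases. Among the arrays of the 2 groups compared, only leaving out 16α-LE2 replicate 29 gave a pass (limma adjusted p = 0.0138). In the other cases a placebo or beta-titled array was left out, and the difference itself stayed at −1.12. Without estradiol replicate 33 the difference was −1.16 and did not pass (0.103). The Col1a2 difference was −0.62 (95% interval −0.95 to −0.30, limma adjusted p = 0.391), and that of Col5a2 was −0.35 (95% interval −0.60 to −0.11, limma adjusted p = 0.699). Col1a1 had −0.25 (95% interval −0.43 to −0.07, limma adjusted p = 0.727) and Col5a1 had −0.19 (95% interval −0.40 to 0.02, limma adjusted p = 0.875). Col5a3 had −0.09, with an interval from −0.36 to 0.18. Without estradiol replicate 33 the differences were −0.69 for Col1a2, −0.40 for Col5a2, −0.19 for both Col1a1 and Col5a1 and −0.04 for Col5a3, and none passed. A value that did not pass does not show that the agonists act alike.

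The beta-titled arrays, called control solution in a label, gave a second set of arrays to set beside placebo. With beta-titled against placebo, none of the 6 genes passed with limma and none had an unadjusted p under 0.05, where 0% and 5.7% of all genes did. Changes ran from −0.00285 for Col5a2 to 0.12 for Col5a1, and the 95% interval for Col3a1 ran from −0.33 to 0.51. The fall with 16α-LE2 was also present against this group. Col3a1 had 10.99, 10.87, 10.78, 10.34 and 10.24 in beta-titled replicates 31, 32, 33, 35 and 36, each above all 16α-LE2 arrays. Its log2 change was −1.57 ± 0.20 with 16α-LE2 (SE, with adjusted p = 0.00042 in limma). As in placebo, replicates 31, 32 and 33 stood above the later numbers, whereas replicate 33 was the lowest of the 16α-LE2 and of the estradiol arrays. The part of the replicate number in these levels was not tested. Col5a2 averaged 8.11 ± 0.14 with 16α-LE2 and 8.76 ± 0.20 in the beta-titled group (SD, n = 5 each), a log2 change of −0.65 ± 0.12 (SE, with adjusted p = 0.0156 in limma). The Col5a2 call was lost without 16α-LE2 replicate 30, 32 or 33 or beta-titled replicate 31 or 32 (limma adjusted p = 0.0535 to 0.0688). Those were 2 of 6 genes called, both lower, against 0.174% of all genes called and 0.0993% called lower. For both of them all 16α-LE2 arrays lay below all beta-titled arrays, against 1.28% of all genes. Col1a2 had a change of −0.66 and did not pass (limma adjusted p = 0.105). Its probe set 1423110_at, the less bright of its upper 2, had −0.77 and passed among the probe sets (limma adjusted p = 0.0468), where 0.0601% of all did. The second probe sets of the 2 called genes did not pass. Col3a1 probe set 1427884_at had −0.72 (limma adjusted p = 0.301) and Col5a2 probe set 1450625_at had −0.27. Both comparisons use the same 16α-LE2 arrays, so they are not independent of each other. Estradiol against the beta-titled group gave no call among the 6 genes, where 0% of all genes were called. Col3a1 had −0.45 (95% interval −0.87 to −0.03, limma adjusted p = 0.925) and Col5a2 −0.29 (95% interval −0.54 to −0.05, limma adjusted p = 0.925). Col1a2, Col1a1, Col5a1 and Col5a3 had −0.04, 0.08, −0.05 and 0.12. Without estradiol replicate 33 the Col3a1 change was −0.41 and that of Col5a2 −0.25, and again no gene of the 6 passed. Col1a2, Col1a1, Col5a1 and Col5a3 then had 0.02, 0.02, −0.05 and 0.07.

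Group means were put in order for the representative probe sets. Col3a1 stood at 9.07 with 16α-LE2, 10.19 with estradiol, 10.56 with placebo and 10.64 in the beta-titled group. Col5a2 stood at 8.11 with 16α-LE2, 8.47 with estradiol, 8.76 in the beta-titled group and 8.77 with placebo. In both orders 16α-LE2 was the lowest, and the differences between estradiol, the beta-titled group and placebo did not pass. Col1a2 stood at 9.13 with 16α-LE2 and between 9.73 and 9.79 in the 3 other groups. The order of those 3 groups differed between probe sets. Col1a2 probe set 1423110_at stood at 7.47 with 16α-LE2, 7.97 with estradiol, 8.20 with placebo and 8.23 in the beta-titled group. Col3a1 probe set 1427884_at stood at 8.79 with 16α-LE2, 9.47 with estradiol, 9.51 in the beta-titled group and 9.64 with placebo.

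Across arrays of the same group, the 6 genes tended to rise and fall together. Over deviations from the group means in all 20 arrays, all 15 pairs correlated above 0, with a median Pearson's r of 0.56, and 10 of 15 passed by Pearson's r and 9 by Spearman's rho after adjustment over the pairs. Col3a1 and Col5a2 had the highest value, r = 0.90 and rho = 0.88 (permutation within groups, adjusted p = 0.00015 and 0.00045), r = 0.85 without the 2 arrays farthest from the Col3a1 median, and r = 0.90 without estradiol replicate 33. Col1a2 followed Col5a1 with r = 0.87 and rho = 0.85 (permutation adjusted p = 0.0006 and 0.00055), r = 0.79 without the 2 farthest arrays, and r = 0.90 without estradiol replicate 33. Without that array all 15 pairs were again above 0, with a median r of 0.60. The type I partners Col1a1 and Col1a2 had r = 0.39 and rho = 0.40, which did not pass (permutation adjusted p = 0.13 and 0.14), and r = 0.57 without estradiol replicate 33. Genes on 1 array share its RNA, labelling, scaling and replicate number, and their part in these correlations was not tested. Pairs of other genes were not set beside these 15, so the counts are not shown to be particular to the collagens.

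**Figure D3:**
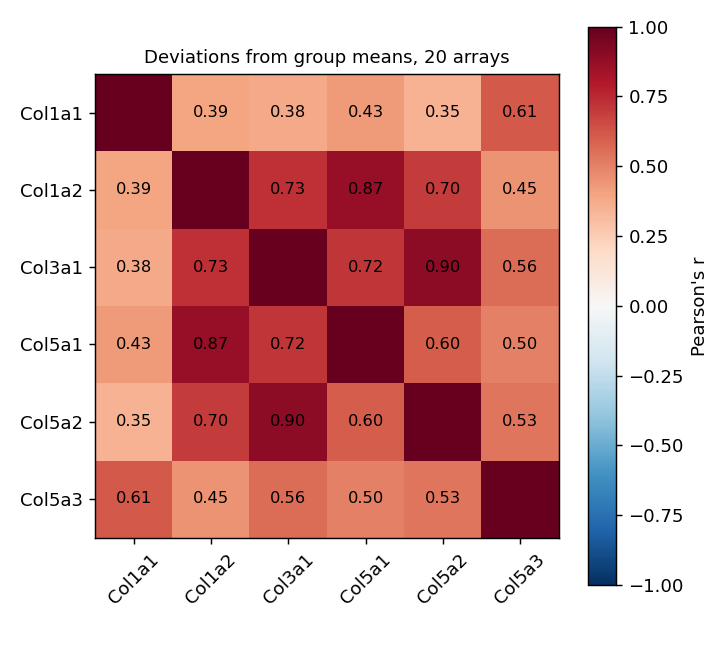
Pearson's r between each pair of the 6 genes (rows and columns) over deviations from the group means in 20 arrays; colour gives r from −1 to 1. All pairs are above 0, the highest being Col3a1 with Col5a2 at 0.90 and the lowest Col1a1 with Col5a2 at 0.35.

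Col3a1 and Col5a2 are also next to each other on chromosome 1, with no protein-coding gene between them in the reference table. The adjacent genes were looked at after these values were seen. Gulp1, which adjoins Col3a1, had a log2 change of −0.28 ± 0.14 with 16α-LE2 against placebo (SE, with adjusted p = 0.58 in limma), and Wdr75, which adjoins Col5a2, had −0.07 ± 0.12 (SE, with adjusted p = 0.921 in limma). Slc40a1, the iron exporter gene beyond Wdr75, had −0.23, and Ercc5 on the other side had 0.06. None of these 4 genes passed.

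Of the other genes, those most like the mean of the 6 standardized collagen genes over all 20 arrays were Loxl1 (Pearson's r = 0.90), Col6a1 (0.85), B3glct (0.84), Col4a1 (0.83), Col6a3 (0.82) and Pdgfrb (0.81), of 12076 ranked. Without estradiol replicate 33 these 6 had r from 0.81 to 0.90. Those values include the difference between groups. Over deviations from the group means r ran from 0.69 for Pdgfrb and 0.72 for Col6a3 to 0.88 for Loxl1. The list was cut at 6 genes, and the next gene had r = 0.809 beside 0.813 for Pdgfrb. Loxl1 is a lysyl oxidase-like enzyme, Col6a1 and Col6a3 encode chains of the beaded-filament collagen VI, Col4a1 a chain of basement membrane collagen, and Pdgfrb a growth factor receptor of mural cells and fibroblasts. With 16α-LE2 against placebo their log2 changes ran from −0.61 for Col4a1 to −0.09 for B3glct, and none passed.

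The genes that fold, cut, bind and degrade fibrillar collagen were read from lists. The counts of these lists and of the cell type markers stand beside 59.7% of all genes with a negative change with 16α-LE2 against placebo, 0.199% called lower and 9.01% with an unadjusted limma p under 0.05. Of 12 tested genes for folding and processing, 1 fell with 16α-LE2 against placebo, Sparc, a secreted collagen-binding protein (−0.99 ± 0.11 SE, with adjusted p = 0.000102 in limma), and 10 were negative, with a median of −0.10. Serpinh1, the collagen chaperone HSP47, had −0.47 (limma adjusted p = 0.279) and Ppib, a prolyl isomerase, −0.23 (0.47). Of 9 genes for propeptide removal and crosslinking none passed with limma, 3 had an unadjusted p under 0.05 (9.01% of all genes) and the median was −0.05. They included Pcolce2, an enhancer of propeptide cleavage, at −0.46 (limma adjusted p = 0.149), Loxl1 at −0.34 (0.449) and Adamts3, a propeptide-cutting protease, at 0.16 (0.415).

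Of 13 fibril regulators, 12 were negative (59.7% of all genes), with a median of −0.21, and 1 fell, Col14a1, a fibril-associated collagen (−0.57 ± 0.11 SE, with adjusted p = 0.0175 in limma). Aspn and Lum, small leucine-rich proteoglycans that bind fibrils, had −0.72 and −0.65 (limma adjusted p = 0.129 and 0.156). Of 8 degradation and receptor genes all were negative, with a median of −0.25, and 1 fell, Mmp2, a gelatinase (−0.65 ± 0.12 SE, with adjusted p = 0.0175 in limma). Itga1, the α chain of a collagen-binding integrin, had −0.39 (limma adjusted p = 0.0545) and Ddr2, a collagen receptor kinase, −0.28 (0.175). Of 14 genes of transforming growth factor β and profibrotic signalling none passed with limma, 3 had an unadjusted p under 0.05, and the median was −0.10. Postn, a matricellular protein gene, had −0.87 (limma adjusted p = 0.0727), Smad2, a signal transducer, −0.20, and Ltbp1, which tethers the latent ligand, −0.21. Of the 5 other fibrillar collagen genes Col2a1, Col11a1, Col11a2 and Col24a1 lay below the level filter, and Col27a1 had a change of −0.00316.

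With estradiol against placebo no gene of these lists passed, and the medians of the 5 lists with more than 1 tested gene ran from −0.14 to 0.06, and from −0.09 to 0.09 without estradiol replicate 33, when again none passed. With 16α-LE2 against estradiol Col14a1 was the 1 gene that fell (−0.64, limma adjusted p = 0.027), and it was again the 1 gene that passed without estradiol replicate 33 (−0.66, 0.0489). With 16α-LE2 against the beta-titled group Sparc, Col14a1 and Mmp2 were lower again (−0.90, −0.58 and −0.60, limma adjusted p = 0.00042, 0.0161 and 0.0326).

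**Figure D4:**
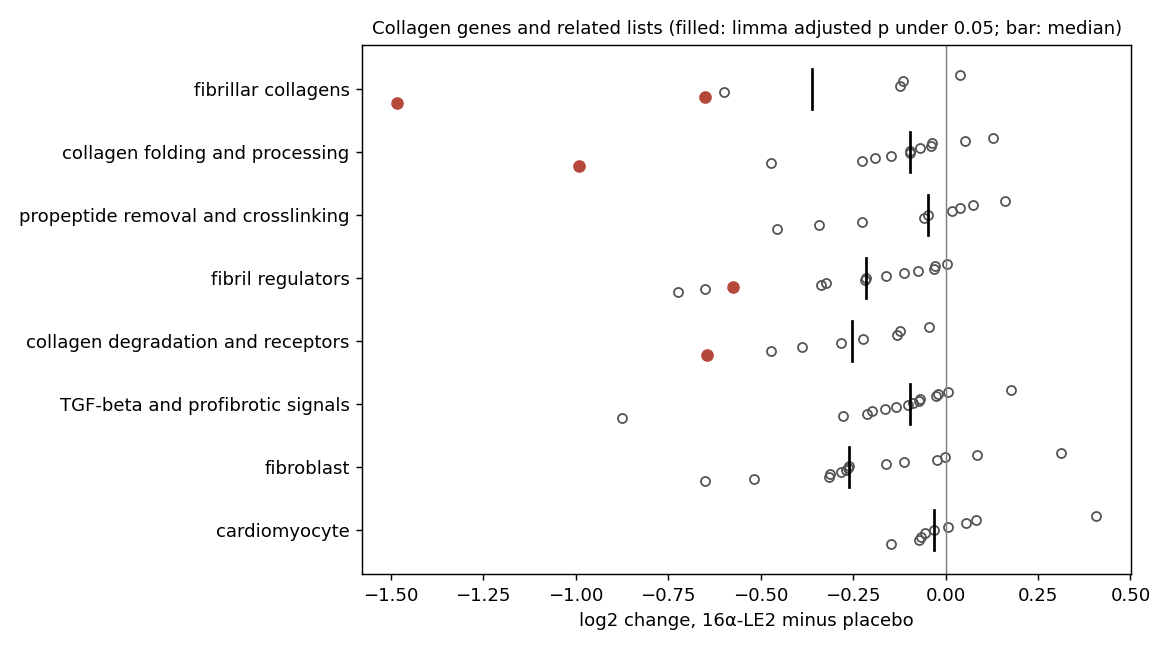
Log2 change of 16α-LE2 minus placebo (horizontal axis) for the 6 fibrillar collagen genes and the tested genes of 7 lists, 1 circle a gene; filled circles passed at a limma adjusted p under 0.05 and the black bar is the median of a list. Col3a1, at −1.48, lies lowest of all the genes drawn, and cardiomyocyte markers centre near 0.

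Markers of fibroblasts, the main source of these collagens, stood beside the fall as follows. Of 14 tested fibroblast markers none passed with limma, 12 were negative and 7 had an unadjusted p under 0.05, beside 59.7% and 9.01% of all genes, with a median change of −0.26 with 16α-LE2 against placebo. Their mean level ranged from 9.47 to 9.62 in 16α-LE2 arrays and from 9.45 to 9.82 in placebo arrays. Pdgfra, a fibroblast receptor gene, had −0.31 and Tcf21, a fibroblast transcription factor gene, −0.00154, both picked by role after the values were seen. Lum, Dcn and Ddr2 are in this list and in the lists above. Of 10 endothelial markers 8 were negative, none passed with limma and 9 had an unadjusted p under 0.05, with a median of −0.31 and levels of 9.01 to 9.48 with 16α-LE2 and 9.28 to 9.58 with placebo. Of 9 smooth muscle and pericyte markers 6 were negative, none passed with limma and 4 had an unadjusted p under 0.05. Their changes ran from −0.38 to 0.30, with a median of −0.08. Their levels were 9.49 to 9.75 with 16α-LE2 and 9.66 to 9.80 with placebo. Of 4 red blood cell markers 1 rose, Slc4a1, where 3 of all 12082 genes were called higher. Of the 4 markers 3 had an unadjusted limma p under 0.05. The 4 had a median of 0.54 and levels of 8.28 to 9.28 with 16α-LE2 and 7.97 to 8.37 with placebo. Macrophage, cardiomyocyte, adipocyte and Schwann cell markers had medians of 0.02, −0.03, −0.03 and 0.02, and 1 mesothelial marker was tested, at 0.08. The part of these cell types in the collagen values was not tested.

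The difference between 3′ and 5′ control probe sets, a sign of RNA quality, ranged from −0.09 to 0.24 for Actb in 16α-LE2 arrays and from −0.05 to 0.12 in placebo arrays, and for Gapdh from −0.12 to 0.12 in 16α-LE2 arrays and from −0.02 to 0.12 in placebo arrays. The SD of all values on an array averaged 1.39 for 16α-LE2 and 1.44 for placebo. With arrays centred and scaled to a common SD, Col3a1 had a change of −1.38 (limma adjusted p = 0.00486) and Col5a2 of −0.61 (0.0304).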

How the data were processed

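Total RNA (100 ng, per the labels) was biotin labelled and hybridized to Affymetrix mouse arrays. The deposited values, 1 for each of 45101 probe sets and 20 arrays, were read as log2 from their range; the sources used here do not give the log base, summarization or normalization. Genes were named from the platform annotation: 34945 probe sets had 1 symbol, 932 several and 9160 none, after 64 controls were left out; IDs of 34741 were found in the reference gene table. Genes whose mean exceeded 6.931 (the median over probe sets) were tested by their probe set of highest mean, with limma 3.58.1 in R 4.3.3 (group means over all 20 arrays, eBayes with trend) and Benjamini-Hochberg adjustment over all 12082. Probe sets were also fitted singly, without a filter. The members and lists were chosen with earlier results of these data known. Named genes were the 6 members, called genes and up to 3 of smallest p in each pathway list, and the 6 most correlated genes; marker genes and neighbours were added after values were seen. Pair differences used exact permutation, and correlations 100000 permutations within groups. The fit was tested on simulated data. Figures used matplotlib 3.10.9. Replicate numbers were not taken as pairs. Deviations of same-numbered arrays of different groups correlated from −0.35 to 0.51 over 17 pairs, with a median of −0.02 beside 0.01 for other pairs. The 6 genes were not tested for this by themselves. Alternatives covered filter, probe set summary, scaling, array weights, variance trend, groups fitted, replicate block, threshold, control pooling and leaving out each array.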

Additional observations from a re-analysis of the deposited data

Results flagged for a closer look

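Over the 14 probe sets and 4 groups, 5 of 56 sets of 5 arrays held an array whose gap to the rest was large for the range of the set (8.93%, where chance gives about 5%). Estradiol replicate 33 was the highest of its group for Col1a1 probe set 1423669_at, at 7.62 beside 7.28 to 7.33, and for Col5a3 probe set 1425984_at, at 6.54 beside 6.30 to 6.35. Placebo replicate 32 was the highest for Col1a1 probe set 1423669_at, at 7.54 beside 7.13 to 7.22. 16α-LE2 replicate 29 was the highest for Col5a1 probe set 1416740_at, at 7.72 beside 7.34 to 7.45, and for Col5a3 probe set 1419703_at, at 8.23 beside 7.41 to 7.56. None of these sets belongs to Col3a1, Col5a2 or Col1a2.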

How the results depend on the processing

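Col3a1 kept its fall and its call with 16α-LE2 in all 31 alternatives against placebo, with log2 changes from −1.64 to −1.17, and in all 30 against the beta-titled group. None of these used its second probe set, 1427884_at, alone. Fitted singly among all probe sets, 1427884_at was lower but did not pass. It had −0.85 against placebo (limma adjusted p = 0.0981) and −0.72 against the beta-titled group (0.301). Of the 6 genes, 1 passed against placebo with probe sets averaged or quantile normalization, and 1 against the beta-titled group with the mean of probe sets; Col5a2 was the gene lost, at −0.46 and −0.56 against placebo. With array weights, or with placebo and beta-titled arrays pooled, 3 passed against placebo, Col1a2 being the gene gained. Leaving out each array, 1 to 2 genes passed against placebo, 1 to 3 against the beta-titled group and 0 to 1 against estradiol. Against estradiol 1 gene passed without the filter, with the 75th percentile filter, with only the 2 groups compared, or at an adjusted p under 0.1, and 2 with array weights. With the replicate number as a block, 1 gene passed against estradiol (Col3a1, −1.15, limma adjusted p = 0.0108), as a pairing the labels do not state, and 2 against placebo; 3 of 20 arrays correlated best with their own number. The list values and the likeness without estradiol replicate 33 were added after seeing the data. None of the 6 genes passed in the 3 comparisons without 16α-LE2 under any alternative.

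Changes that reversed sign were all of genes that did not pass; the cause was not tested. With the mean of probe sets these were −0.103 for Col1a2 with estradiol against placebo, −0.0229 for Col3a1 in the beta-titled group against placebo and −0.0165 for Col1a1 with estradiol against the beta-titled group. Col5a2 in the beta-titled group against placebo had 0.102 after quantile normalization and 0.0561 after scaling to a common SD. With array weights Col5a3 had −0.0787, −0.0579 and −0.0208 (16α-LE2 against placebo, beta-titled against placebo, 16α-LE2 against beta-titled), Col3a1, Col1a2 and Col1a1 had −0.0601, −0.0366 and −0.0408 in the beta-titled group against placebo, and Col1a2 and Col5a1 had 0.0675 and 0.00340 with estradiol against beta-titled. With the replicate block Col5a3 had −0.0728 and −0.0867 (16α-LE2 against placebo and beta-titled) and Col1a2 −0.0312 (estradiol against placebo). Leaving out each array, ranges that crossed 0 were, against placebo, −0.111 to 0.0945 for Col5a3 with 16α-LE2, −0.0605 to 0.0853 for Col1a2 with estradiol, and −0.0674 to 0.223, −0.0621 to 0.176, −0.0872 to 0.0717 and −0.0579 to 0.0499 for Col3a1, Col1a2, Col5a2 and Col5a3 in the beta-titled group; against beta-titled they were −0.119 to 0.0966 for Col5a3 with 16α-LE2, and −0.155 to 0.0833 and −0.127 to 0.0410 for Col1a2 and Col5a1 with estradiol. The number of arrays limits the precision, and signal near the filter level, as for Col1a1, is not separated from background.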
